A study of Mus musculus with 4 samples.

Results

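The nuclear-encoded respiratory chain genes were followed in single cells of the mouse ventral prostate. They were taken by symbol, from the prefixes Ndufa, Ndufb, Ndufc, Ndufs, Ndufv, Sdh (a to d), Uqcr, Cox4i, Cox5, Cox6, Cox7, Cox8 and Atp5. Of 101 symbols with these prefixes, 17 were left out as assembly factors or as names with -ps, and 4 because at least 1 table did not list them. The 80 members that remained, of 17896 symbols in all, comprised 38 genes of complex I, 4 of complex II, 8 of complex III, 13 of complex IV and 17 of complex V. Of these 4 symbols, Cox6a2 had 6 counts in te2 replicate 1, Cox8b 5 and Cox8c 3 in sham replicate 2, and Ndufa4l2 5 in te2 replicate 2, and each was listed in 1 table.

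Ventral prostates came from wild-type (wt) mice of the strain C57BL6j, 2 in the group labelled sham and 2 in the group labelled te2, harvested 2 weeks after hormone pellets were implanted. What te2 stands for, and whether sham mice received an empty pellet, are not given in the sources used here. The lobe pair of each animal was pooled in 1 tube and digested in the cold with a bacterial protease, so each library is 1 mouse. Droplet sequencing of the 3' end counted transcripts as unique molecular identifiers (UMIs), and the question addressed here is how the genes of each respiratory complex differed between te2 and sham in 3 epithelial classes.

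The respiratory chain passes electrons from NADH (complex I) and succinate (complex II) through ubiquinone, complex III and cytochrome c to oxygen at complex IV. The protons moved on the way drive ATP synthase, complex V. Most subunits are encoded in the nucleus and imported, while a small set is encoded by mitochondrial DNA, so each complex other than complex II is built from the products of both genomes. In the prostate the secretory epithelium is known for citrate release, which draws on the same mitochondria.

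The classes were set by the share of a cell's UMIs. Luminal cells had at least 10% from Sbp and Spink1, secretory products of the ventral lobe. Basal cells had at least 0.2% from the keratin genes Krt5, Krt14 and Krt15, and proximal cells at least 0.1% from Krt4, Wfdc2 and Cxcl17, genes of the epithelium nearest the urethra. Among 8091 kept cells (at least 500 UMIs and at most 20% mitochondrial UMIs), the sham libraries held 1057 and 1292 luminal, 48 and 170 basal, and 43 and 208 proximal cells. The te2 libraries held 392 and 485 luminal, 593 and 574 basal, and 778 and 491 proximal cells. A cell could pass more than 1 gate. Basal and proximal gates shared 0 and 7 cells in sham and 107 and 77 in te2, and luminal and proximal gates 8 and 28 in sham and 29 and 32 in te2.

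Depth differed between the groups. Total UMIs were 3999690 and 5513275 for the sham libraries, against 12259610 and 13134017 for te2. The median luminal cell had 1551 and 2455 UMIs in sham, against 8265.5 and 10359 in te2. The basal sums of sham were 48985 and 193996 UMIs, against 1551628 and 1725545 in te2. In CPM (counts scaled to a fixed total per library and class), a single count was worth 18.4 in the basal sum of sham replicate 1 and 0.61 in that of te2 replicate 2. Any 2 libraries shared between 1 and 5 cell barcodes. Markers that the gates did not use set basal cells apart. The 5 other basal markers summed to 1225 and 1376 CPM in sham and 2036 and 1885 in te2 basal cells, against at most 136.8 in any proximal or luminal sum, and Dsc3 was without a count in the basal cells of both sham libraries. The 6 other proximal luminal markers summed to 2766 and 2424 CPM in sham and 3424 and 4738 in te2 proximal cells. They also reached 2273 and 2444 CPM in te2 luminal and 1754 and 1688 in te2 basal cells, so te2 luminal cells overlapped the range of sham proximal cells. The 9 other luminal markers summed to 2131 to 3246 CPM in luminal cells but to 3090 to 3740 in proximal cells, so the luminal class rests on Sbp and Spink1 alone.

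Promoters are shown for 5 members because they carry the letters of 3 motifs that nuclear respiratory genes are known for and because their transcripts took different courses. RefSeq promoters on build GRCm38.p6 (250 bases before to 50 after the start) were matched by symbol to 68 of the 80 members. Atp5j has a further promoter (chr16:84835596-84835845) that holds no letters of the 3 motifs and is not shown. Each line gives 220 bases before to 30 after the start, 5′ to 3′, with the motif letters in capitals on whichever strand they were found.
Ndufa8 (chr2:36049309-36049558, minus strand): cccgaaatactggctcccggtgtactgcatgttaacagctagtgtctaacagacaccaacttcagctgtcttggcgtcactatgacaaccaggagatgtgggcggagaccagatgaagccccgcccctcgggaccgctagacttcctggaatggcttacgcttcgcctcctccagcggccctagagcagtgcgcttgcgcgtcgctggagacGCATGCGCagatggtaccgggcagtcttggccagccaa
Ndufa11 (chr17:56717542-56717791, plus strand): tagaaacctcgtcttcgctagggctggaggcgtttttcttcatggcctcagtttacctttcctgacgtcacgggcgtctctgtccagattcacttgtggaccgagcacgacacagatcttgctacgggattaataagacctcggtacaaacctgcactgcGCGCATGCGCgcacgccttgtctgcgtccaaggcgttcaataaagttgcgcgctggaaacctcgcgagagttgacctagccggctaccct
Atp5h (chr11:115419890-115420139, minus strand): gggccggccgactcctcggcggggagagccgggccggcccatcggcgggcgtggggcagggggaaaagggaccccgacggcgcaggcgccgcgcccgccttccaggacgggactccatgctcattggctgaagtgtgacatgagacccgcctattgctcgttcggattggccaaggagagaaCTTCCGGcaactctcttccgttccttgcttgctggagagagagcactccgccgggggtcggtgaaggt
Atp5j (chr16:84834947-84835196, minus strand): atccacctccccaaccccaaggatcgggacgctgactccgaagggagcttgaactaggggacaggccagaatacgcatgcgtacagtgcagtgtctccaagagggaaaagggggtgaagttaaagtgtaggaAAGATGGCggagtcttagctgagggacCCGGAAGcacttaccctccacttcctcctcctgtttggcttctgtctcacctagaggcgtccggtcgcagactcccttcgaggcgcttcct
Uqcrh (chr4:116075041-116075290, minus strand): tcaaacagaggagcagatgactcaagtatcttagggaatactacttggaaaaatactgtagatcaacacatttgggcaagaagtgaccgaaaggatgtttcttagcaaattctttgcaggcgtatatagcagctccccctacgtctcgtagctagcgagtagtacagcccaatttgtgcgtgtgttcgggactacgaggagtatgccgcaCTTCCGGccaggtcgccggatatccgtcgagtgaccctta
The Ndufa8 and Ndufa11 stretches hold the core of nuclear respiratory factor 1 (GCGCATGC or its reverse complement GCATGCGC), which in Ndufa11 is read on both strands over the same letters. Atp5h and Uqcrh hold the ETS core (CCGGAAG or CTTCCGG), and Atp5j holds the ETS core and the YY1 core (AAGATGGC or GCCATCTT).

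Over the whole 300 bases, the nuclear respiratory factor 1 letters were found for 10 of the 68 members (14.7%) and for 3.05% of the 27025 genes with a promoter. The ETS letters were found for 17 members (25%) and 9.93% of all genes, and the YY1 letters for 10 members (14.7%) and 3.19% of all genes. Motif letters overlapped each other in 5 member promoters. The median GC content was 58.3% in member promoters and 52.7% in all promoters, and its part in these shares was not tested. Among the 44 matched members that were higher in te2 luminal cells (below), 5 held the nuclear respiratory factor 1 letters, 12 the ETS letters and 7 the YY1 letters. Among the other 24 the numbers were 5, 5 and 3. Uqcrh, whose ETS letters lie close to the start, is the complex III member with the smallest change in luminal cells. These matches describe letters and show no binding.

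In luminal cells, members of every complex were more abundant in te2 than in sham. The 80 members together made up 2.004% and 2.19% of luminal UMIs in sham, against 3.03% and 2.93% in te2. In the median luminal cell the share was 1.82% and 2.07% in sham and 2.94% and 2.75% in te2, so both te2 libraries lay above both sham libraries by either measure. In basal cells the share was 2.22% and 2.47% in sham and 3.62% and 3.44% in te2. Proximal cells started from a higher share, 4.03% and 4.33% in sham, and te2 stood at 4.25% and 4.10%, within the range of sham. Cells that passed no gate had 2.53% and 2.95% in sham and 3.40% and 3.49% in te2.

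**Figure D1:**
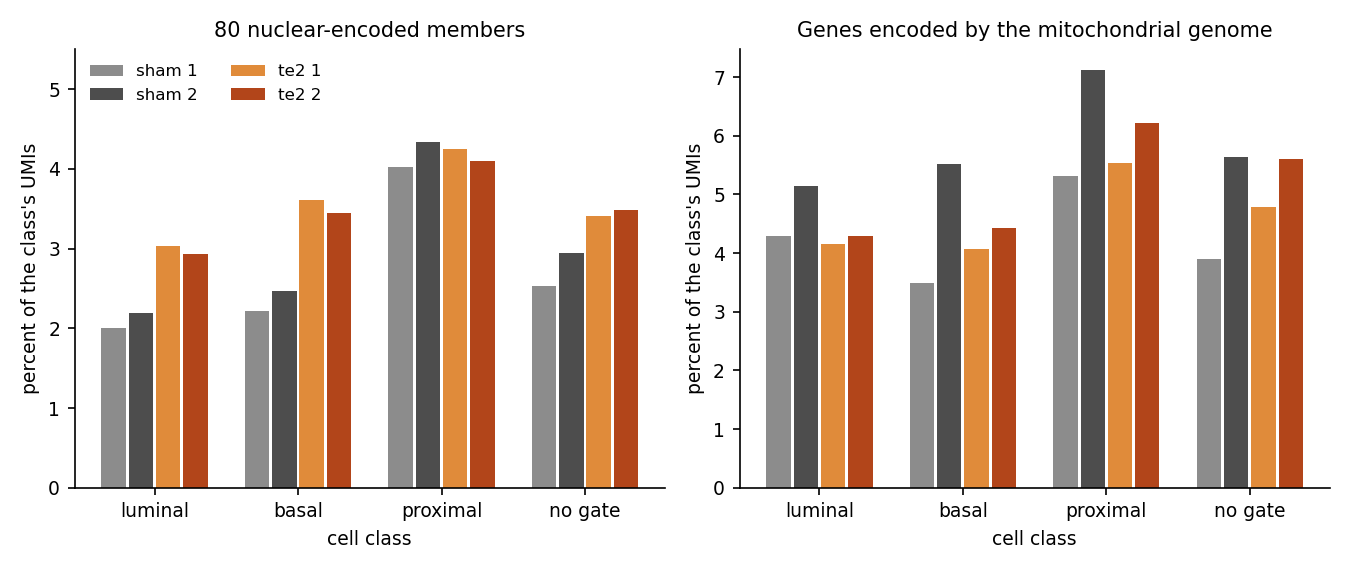
Share of each class's UMIs (percent, y axis) taken by the 80 nuclear-encoded members (left) and by genes of the mitochondrial genome (right), with 1 bar for each library. In luminal and basal cells the te2 bars of the members (2.93% to 3.62%) stand above the sham bars (2.004% to 2.47%), while in proximal cells and for mitochondrially encoded genes the groups overlap.

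By edgeR's quasi-likelihood test on the summed counts, 51 of the 79 members tested in luminal cells were higher in te2 and 2 were lower at an adjusted p under 0.05. Of all 10976 genes tested there, 18.0% were higher and 14.1% lower. The median log2 change was 0.54 over the members and -0.01 over all genes. Both te2 libraries lay above both sham libraries for 65 of the 79 members, against 34.1% of all genes. The summed CPM of the members, scaled by TMM factors, was 21480 ± 976 (SD, n = 2) in sham. In te2 it was 29360 ± 88.8, which is 1.37 times as much. Between 42 and 55 members were higher under every alternative of processing and with each library left out. In cells that pass exactly 1 gate it was 48 of 78. Markers of other cells moved with this result. The 9 proximal luminal markers summed to 305 and 327 CPM in sham luminal cells and 2516 and 2627 in te2 luminal cells, with Psca without a count in both sham libraries, and the 2 erythroid markers (Hba-a1 and Hbb-bs) summed to 945 and 334 CPM in sham and 10.8 and 4.24 in te2. Their part in the result was not tested. Cytosolic ribosomal transcripts went from 13.3% and 14.2% of luminal UMIs in sham to 11.6% and 9.84% in te2. With cells of at least 2000 UMIs 53 of 77 members were higher, and with class sums thinned to equal totals 49 of 77.

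In basal cells 29 of 77 members tested were higher and 0 lower, against 5.45% and 3.38% of 9196 genes. At an unadjusted p under 0.05, 44 were higher and 0 lower by edgeR, a count not made over all genes. DESeq2 also called 0 lower. The member median was 0.64 and that of all genes 0.07, and both te2 libraries lay above both sham libraries for 57 members, against 32.5% of genes. With either te2 library left out fewer members were higher, and fewer of all genes too. DESeq2 called 5 members higher, and 90 of 9196 genes. With sums thinned to equal totals 3 of 57 members were higher, close to the share of all genes (56 of 919). The median was 1.22 without sham replicate 2 (all genes 0.63). Transcripts of other classes moved with this result. Sbp and Spink1 made up 4.36% and 4.33% of basal UMIs in sham and 0.28% and 0.72% in te2, and the 8 basal markers summed to 5144 and 5732 CPM in sham and 10898 and 13714 in te2. The 9 proximal luminal markers summed to 122 and 892 CPM in sham and 2966 and 2492 in te2 basal cells, and the 2 erythroid markers to 469.5 and 211 in sham and 79.3 and 30.7 in te2. Their part was not tested.

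In proximal cells 8 of 78 members were higher and 0 lower, against 5.18% and 4.19% of 10434 genes. At an unadjusted p under 0.05, 15 were higher and 4 lower by edgeR, a count not made over all genes. DESeq2 called 1 higher and 0 lower. The member median (0.04) was close to that of all genes (0.05), and 33 members had both te2 libraries above both sham libraries, against 32.7% of genes. Markers differed between the groups here too. The 4 urethra-near or vesicle markers summed to 509 and 504 CPM in sham and 69.6 and 70.8 in te2. In each library 3 of these 4 had no count, so each sum rests on 1 gene. Their luminal sums, also with 3 without a count, were 269 and 280 CPM in sham and 102 and 90.4 in te2. The 2 erythroid markers summed to 980 and 169 in sham and 11.7 and 100 in te2. The 8 basal markers summed to 174 and 291 in sham and 917 and 987 in te2. The part of these shifts was not tested. Leaving out any 1 library lowered the count of higher members, and the count over all genes fell too. The median was 0.42 without sham replicate 2 (all genes 0.44).

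Of the 80 members, 28 were higher in both luminal and basal cells, 8 in all 3 classes and 28 in none. Joint counts of this kind were not made over all genes, and the classes share cells. These counts therefore do not show whether such sharing is unusual. Ndufb1 was higher in basal (0.93) but not in luminal cells (0.31, adjusted p = 0.069, edgeR). It is named because it was the single one, after its values were seen. Among those found in all 3 classes were Ndufs4 of the complex I arm that takes up NADH electrons, Ndufa8, Ndufb5 and Ndufc2 of its membrane arm, the Rieske iron-sulfur protein gene Uqcrfs1, Cox5a and Atp5d, and they were listed for that after their values were seen. In luminal cells these 7 passed under every alternative, except Uqcrfs1 without te2 replicate 2. In proximal cells these 7 lost their call without sham replicate 2 or without either te2 library, where calls over all genes also fell. Cox5a passed in 17 of 17 basal settings. By DESeq2, Ndufs4, Ndufa8, Ndufb5, Ndufc2, Uqcrfs1 and Atp5d did not pass in basal cells. In cells that pass exactly 1 gate, Ndufs4 and Uqcrfs1 did not pass in basal cells, nor did Ndufa8 in proximal cells.

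**Figure D2:**
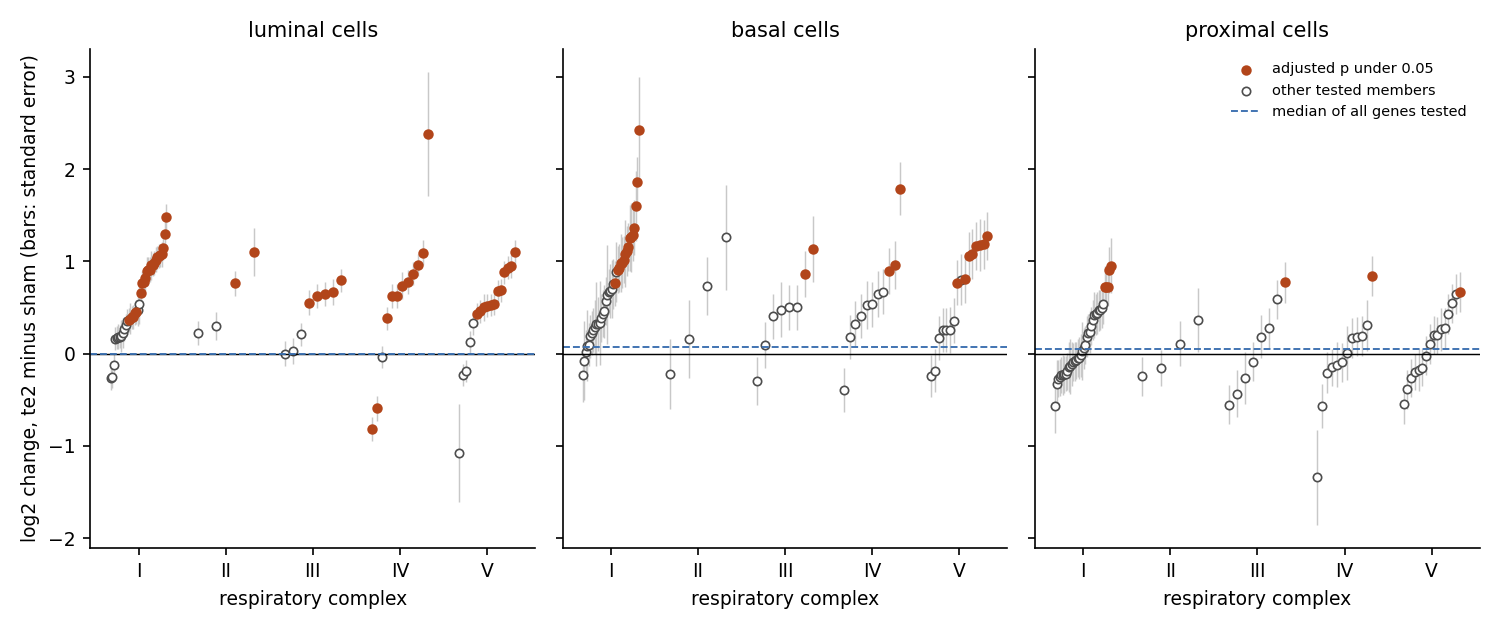
Log2 change (te2 minus sham, y axis) of each tested member, sorted by size within its complex (x axis), in 3 cell classes. Bars are standard errors, filled points passed at an adjusted p under 0.05, and the dashed line is the median of all genes tested. In luminal cells 51 filled points lie above 0 and 2 of complex IV below it; basal cells have 29 and proximal cells 8, all above 0.

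Complex I, the NADH dehydrogenase, had 23 of 38 members higher and 0 lower in luminal cells, and its summed CPM rose from 7985 ± 398 (SD, n = 2) to 11020 ± 283. The count of lower members was 0 also by DESeq2, which called 2 lower members in all of them, both of complex IV. Ndufs4, a subunit needed for late assembly of the NADH-oxidizing arm, stood at 34.6 and 39.7 CPM in the sham luminal cells and at 101 and 107 in te2. Both te2 libraries lay far above both sham libraries, and the log2 change was 1.48 ± 0.14 (SE; adjusted p = 6.04e-06, edgeR). Ndufa4, first purified with complex I and now counted with complex IV, had 388 and 430 CPM in sham and 905 and 1106 in te2 (1.30 ± 0.14, adjusted p = 1.57e-05, edgeR). By its prefix it enters the complex I counts and sums given here in all classes, and not those of complex IV. Ndufc2, a membrane arm subunit, had 110 and 115 CPM in sham and 233 and 265 in te2 (1.15 ± 0.13, adjusted p = 2.33e-05, edgeR). For each of the 3 genes the groups were far apart relative to the spread between libraries. Of the 7 core subunits encoded in the nucleus, which hold the flavin and iron-sulfur clusters, 4 were higher, and of the 31 other subunits 19. Of the 15 members not called, Ndufa7, an accessory subunit at 898 and 1067 CPM in sham and 902 and 897 in te2, had the smallest change among the better expressed ones, whose mean log2 CPM reached 5 (-0.13 ± 0.13).

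In basal cells 16 of the 38 complex I members were higher, and Ndufa4 had the smallest p. It stood at 184 and 355 CPM in sham and 1094 and 1115 in te2 (1.86 ± 0.27, adjusted p = 2.68e-07, edgeR), and it passed in all 17 settings tried. Ndufc2 had 184 and 164 CPM in sham and 385 and 441 in te2 (1.29 ± 0.28, adjusted p = 0.000799, edgeR). Ndufb5, a membrane arm subunit, had 18.4 and 208.7 CPM in sham and 379.9 and 429.8 in te2 (1.36 ± 0.30, adjusted p = 0.000824, edgeR). The first of its sham values is a single count, so the fold rests mainly on sham replicate 2. Ndufa3, an accessory subunit, had 516 and 530.2 CPM in sham and 587 and 478 in te2, with overlapping groups (0.02 ± 0.23).

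In proximal cells 5 complex I members were higher, led by Ndufs4 with 33.3 and 99.6 CPM in sham and 150.4 and 171 in te2 (0.91 ± 0.25, adjusted p = 0.0183, edgeR). Ndufc2 had 310.3 and 301 CPM in sham and 493 and 509 in te2 (0.72 ± 0.21), and Ndufb5 177 and 296 in sham and 436 in both te2 libraries (0.72 ± 0.21). The sham replicates of Ndufs4 and Ndufb5 were well apart, while those of Ndufc2 were close. Ndufa4, which was higher in luminal and basal cells, had 1042 and 1240 CPM in sham and 1466 and 1624 in te2 proximal cells (0.42 ± 0.25, adjusted p = 0.332, edgeR). Ndufa6, an accessory subunit, had the smallest change (-0.02 ± 0.23).

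Complex II, succinate dehydrogenase, has all 4 of its subunits encoded in the nucleus and also works in the tricarboxylic acid cycle. In luminal cells Sdhb, the iron-sulfur subunit, had 69.8 and 76.2 CPM in sham and 127 and 121 in te2 (0.76 ± 0.13, adjusted p = 0.000625, edgeR). Sdhd, a membrane anchor, had 19.6 and 10.3 CPM in sham and 25.6 and 35.9 in te2 (1.10 ± 0.26, adjusted p = 0.00561, edgeR). These 2 passed, the second with sham replicates well apart. The flavoprotein gene Sdha (67.0 and 64.3 in sham, 75.8 and 76.9 in te2, 0.22 ± 0.13) and the anchor gene Sdhc (46.1 and 41.8 in sham, 49.7 and 57.6 in te2, 0.30 ± 0.15) did not, although both te2 libraries lay above both sham libraries.

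In basal and proximal cells 0 complex II members passed by edgeR or by DESeq2, and at an unadjusted p under 0.05 edgeR gave 2 higher in basal (Sdhb and Sdhd) and 0 in proximal cells. In basal cells the log2 values were 0.73 ± 0.31 for Sdhb, 1.26 ± 0.57 for Sdhd, -0.23 ± 0.38 for Sdha and 0.16 ± 0.42 for Sdhc. Sham replicate 1 had 18.4 CPM, a single count, for each of Sdha, Sdhc and Sdhd, so these values are imprecise. In proximal cells they were -0.16 ± 0.20, 0.36 ± 0.35, -0.25 ± 0.21 and 0.11 ± 0.25 in the same order.

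Complex III passes electrons from ubiquinol to cytochrome c. In luminal cells 5 of its 8 members were higher, and its summed CPM was 3188 ± 275 (SD, n = 2) in sham and 4092 ± 18.8 in te2. Uqcrb, a subunit near the ubiquinone site, had 287 and 256 CPM in sham and 446 and 493 in te2 (0.79 ± 0.13, adjusted p = 0.000377, edgeR). The core protein gene Uqcrc2 had 84.5 and 78.0 CPM in sham and 125 and 129 in te2 (0.65 ± 0.13), and the small subunit gene Uqcr11 391 and 467 in sham and 681 and 644 in te2 (0.63 ± 0.13). In all 3 the te2 libraries lay above the sham libraries. The hinge protein gene Uqcrh did not follow them, with 1115 and 1270.0 CPM in sham and 1249 and 1136 in te2 (-0.00 ± 0.14).

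In basal cells Uqcrb (0.86 ± 0.25, adjusted p = 0.0155, edgeR) and Uqcrfs1 (1.13 ± 0.36, adjusted p = 0.0302, edgeR) were the 2 higher members. Uqcrb had 369 and 417 CPM in sham and 744 and 715 in te2, and Uqcrfs1 had no count in sham replicate 1, 107 CPM in sham replicate 2, and 186 and 168 in te2. The Uqcrfs1 fold is thus set by sham replicate 2, and the gene did not pass without sham replicate 1. In proximal cells Uqcrfs1 was the single higher member, with 88.7 and 174 CPM in sham and 257 and 269 in te2 (0.77 ± 0.22, adjusted p = 0.0211, edgeR). Uqcrb there had 698 and 762 CPM in sham and 687 and 701.5 in te2, with overlapping groups.

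Complex IV, cytochrome c oxidase, held both directions in luminal cells, with 9 of 12 tested members higher and 2 lower. Cox5a, the gene of a matrix-side subunit, had 218 and 265 CPM in sham and 479.7 and 549.7 in te2 (1.09 ± 0.14, adjusted p = 5.68e-05, edgeR). Cox5b had 229.7 and 228 CPM in sham and 443 and 447 in te2 (0.96 ± 0.12), and Cox6c 525 and 533 in sham and 992 and 935 in te2 (0.86 ± 0.13). Each of the 3 lay far outside the spread between sham libraries. Cox7a2l went the other way, with 383 and 370.5 CPM in sham and 234 and 193 in te2 (-0.82 ± 0.13, adjusted p = 0.000363, edgeR). Cox7c had 1094 and 899 CPM in sham and 664 and 655 in te2 (-0.60 ± 0.14, adjusted p = 0.00447, edgeR). Both passed in all 18 luminal settings. Cox7c has a near-identical copy, Cox7c-ps1, so the counts of Cox7c are uncertain where reads were shared. The copy had 2, 15, 14 and 24 counts in the kept cells of the 4 libraries, with a cell counted for each gate it passed. Cox7b stood at 403 and 412 CPM in sham and 406 and 390.0 in te2 (-0.03 ± 0.12).

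The broadly expressed isoforms of complex IV were higher in luminal cells. Cox4i1, the regulatory subunit, had 733 and 769 CPM in sham and 1334 and 1239 in te2 (0.78 ± 0.13, adjusted p = 0.000487, edgeR). Cox8a had 848 and 1032 CPM in sham and 1633 and 1498 in te2 (0.74 ± 0.14), Cox6a1 284 and 337 in sham and 456 and 499 in te2 (0.62 ± 0.13), and Cox7a2 336 and 375 in sham and 558 and 538 in te2 (0.62 ± 0.13). All 4 had both te2 libraries above both sham libraries. Cox6b1 passed narrowly (0.38 ± 0.13, adjusted p = 0.0332, edgeR), and no longer did so by DESeq2 (0.0533) or with gates at double the share (0.0659, edgeR). Nor did it pass without sham replicate 1 (log2 change 0.30), te2 replicate 1 (0.43) or te2 replicate 2 (0.34). Cox7a1, known from heart and muscle, rested on 1 and 5 counts in sham and 25 and 14 in te2 (2.38 ± 0.67, adjusted p = 0.0153, edgeR). It did not pass by DESeq2 (adjusted p = 0.0634), without sham replicate 1 (log2 change 1.84) or without te2 replicate 1 (1.65). Cox6b2, the testis isoform, had 3 counts in the sham luminal cells and 7 in te2, and was not tested.

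In basal cells Cox5a had 111 and 186 CPM in sham and 543 and 601 in te2 (1.79 ± 0.28, adjusted p = 2.85e-06, edgeR). Cox4i1 (0.96 ± 0.26) and Cox5b (0.89 ± 0.25) were the other higher members of the 11 tested. Cox4i1 had 534 and 1004 CPM in sham and 1745 and 1494 in te2. The groups did not overlap in these 3 genes. Cox6a1 (0.64 ± 0.25), Cox7a2 (0.67 ± 0.24), Cox8a (0.53 ± 0.26), Cox6b1 (0.53 ± 0.24) and Cox7a2l (-0.40 ± 0.24) did not pass. Cox7c had 811 and 530.2 CPM in sham and 743 and 674 in te2, with overlapping groups (0.18 ± 0.24). Cox7a1 had no basal count in sham and 9 in te2.

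In proximal cells Cox5a was again higher, with 288 and 401 CPM in sham and 645 and 666 in te2 (0.84 ± 0.22, adjusted p = 0.0104, edgeR). It was the single called member of the 12 tested. Cox4i1 (0.31 ± 0.28), Cox6a1 (0.18 ± 0.21), Cox7a2 (0.19 ± 0.22), Cox6b1 (-0.21 ± 0.23), Cox7a2l (-0.15 ± 0.20) and Cox7a1 (-1.34 ± 0.52, adjusted p = 0.102, edgeR) did not pass, and Cox8a had the smallest change (0.01 ± 0.30). Cox7c had 1529 and 1382 CPM in sham and 1061 and 882 in te2 (-0.57 ± 0.24, adjusted p = 0.132, edgeR), with both te2 libraries below both sham libraries.

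**Figure D3:**
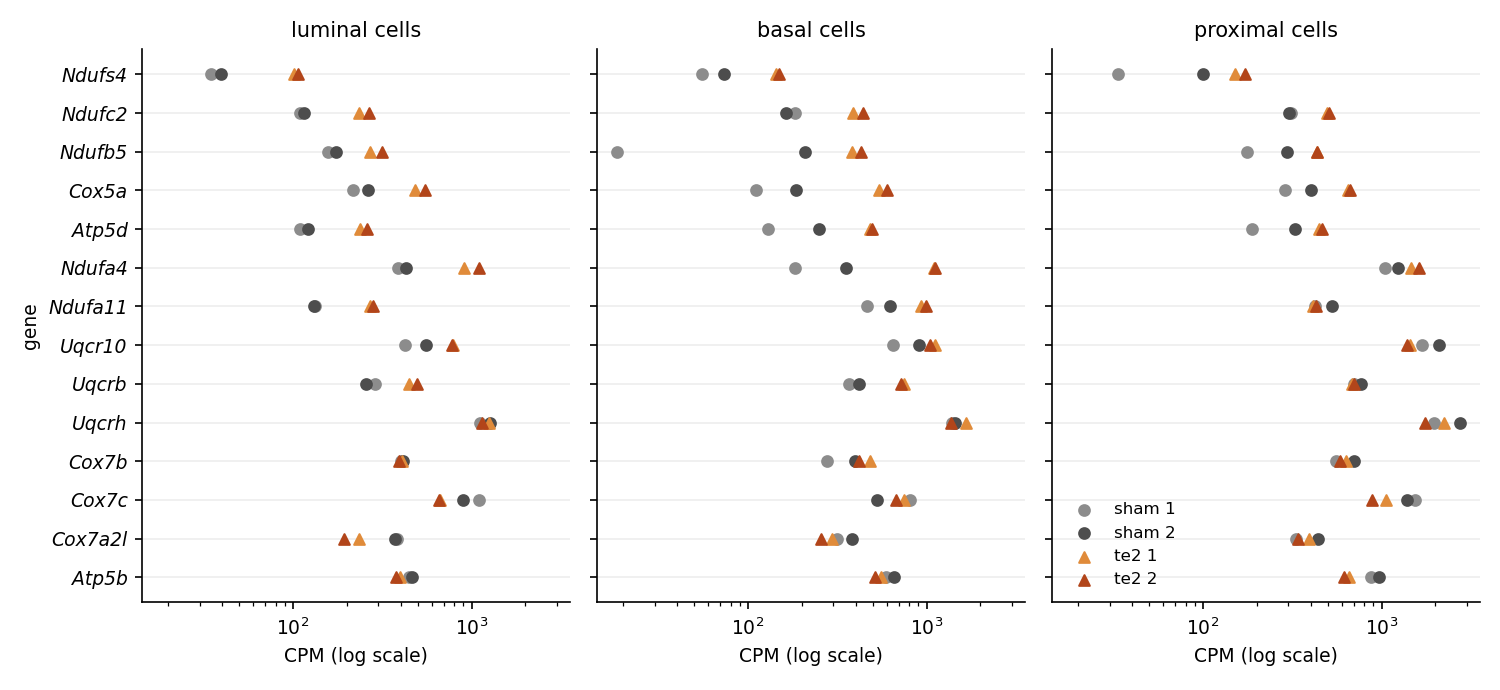
CPM on a log axis (x) of 14 members (y) in each library, circles for sham and triangles for te2, in 3 cell classes. The triangles of Ndufs4, Ndufc2, Ndufb5, Cox5a and Atp5d lie right of the circles in every class, those of Ndufa11 and Uqcrb do so in luminal and basal cells, and Cox7c and Cox7a2l lie left of the circles in luminal cells.

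Complex V, the ATP synthase, had 12 of 17 members higher and 0 lower in luminal cells, and its summed CPM was 4591 ± 156 (SD, n = 2) in sham and 6378 ± 14.5 in te2. Atp5d, of the central stalk, had 109.6 and 122 CPM in sham and 237 and 259 in te2 (1.10 ± 0.13, adjusted p = 3.29e-05, edgeR). Subunits of the peripheral stalk came next. Atp5o had 152 and 167 CPM in sham and 315 and 299.5 in te2 (0.95 ± 0.13), and Atp5pb 229 and 223 in sham and 410.3 and 451 in te2 (0.93 ± 0.12). The te2 libraries of these 3 lay far above the sham libraries. Of the 5 subunits of the catalytic head and its stalk, 4 were higher. The exception, Atp5b, codes for the catalytic beta subunit and had 448 and 462 CPM in sham and 397 and 378 in te2 (-0.23 ± 0.12, adjusted p = 0.163, edgeR). Of the 3 genes for the proton-carrying ring, Atp5g1 and Atp5g3 were higher. Atp5md, a small membrane subunit, had the smallest change (0.12 ± 0.12).

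In basal cells 8 of 16 complex V members were higher. Atp5h, of the peripheral stalk, had 258 and 327 CPM in sham and 762 and 719 in te2 (1.27 ± 0.26, adjusted p = 0.000285, edgeR). Atp5pb had 276 and 248 CPM in sham and 580.4 and 568 in te2 (1.16 ± 0.26), and Atp5d 129 and 248 in sham and 481 and 495 in te2 (1.18 ± 0.27). All 3 had both te2 libraries above both sham libraries, and Atp5g1 had overlapping groups (0.17 ± 0.24). In proximal cells Atp5d was the single higher member of 16, with 188 and 326 CPM in sham and 448 and 464 in te2 (0.67 ± 0.21, adjusted p = 0.0449, edgeR), and Atp5j had overlapping groups (-0.02 ± 0.21). Atp5b had 875.5 and 971 CPM in sham and 660.5 and 615 in te2 there (-0.55 ± 0.21, adjusted p = 0.1, edgeR). Atpif1, whose product inhibits the ATPase in reverse and which the prefixes do not take in, had 216 and 279.6 CPM in sham and 602 and 621 in te2 luminal cells (1.30 ± 0.14, adjusted p = 1.62e-05, edgeR). Its log2 change was 0.77 ± 0.26 in basal (adjusted p = 0.04, edgeR) and -0.02 ± 0.23 in proximal cells. The basal value did not pass by DESeq2, with sums thinned to equal totals, with the replicate number as a block, or without sham replicate 1, te2 replicate 1 or te2 replicate 2.

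Whether the response differed between classes was tested in cells that passed exactly 1 gate, with the library as a block. The response was larger in luminal than in proximal cells for 15 of 80 members and smaller for 1, against 2.17% and 1.99% of 12388 genes. It was larger in basal than in proximal cells for 5 and smaller for 0, against 0.807% and 0.291%. Between luminal and basal cells it was larger for 0 and smaller for 1, against 0.42% and 0.888%. DESeq2 called 13 higher and 1 lower, 5 higher and 0 lower, and 0 in either direction. At an unadjusted p under 0.05, edgeR gave 0 members higher and 12 lower for luminal minus basal, and 36 higher and 0 lower for basal minus proximal. For luminal minus proximal it gave 33 higher and 1 lower. Unadjusted counts were not made over all genes, so they cannot show an excess of members. The member medians were 0.36, 0.58 and -0.23 for luminal minus proximal, basal minus proximal and luminal minus basal, and those of all genes -0.10, 0.18 and -0.24. Without te2 replicate 1 or te2 replicate 2 the member calls were lost, and calls over all genes fell in each contrast. Against proximal cells, fewer members and fewer of all genes had larger responses without sham replicate 2. Without sham replicate 1 more members did, but not more of all genes. Library totals alone moved the median of all genes for luminal minus proximal to 0.05. The counts of larger responses were then 34 (luminal minus proximal) and 11 (basal minus proximal), against 428 and 113 of 12388 genes. With sums thinned to equal totals they were 8 and 2, against 87 and 11 of 2039 genes.

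Ndufa11, a membrane arm subunit of complex I whose promoter is shown above, stood out in both contrasts with proximal cells. It had 133 and 131.7 CPM in sham and 271 and 282 in te2 luminal cells, 461 and 620.4 in sham and 935 and 986 in te2 basal cells, and 421 and 525.5 in sham and 412 and 428 in te2 proximal cells. So te2 lay above sham in luminal and basal cells and overlapped it in proximal cells. The difference was 1.32 ± 0.21 for luminal minus proximal (adjusted p = 9.1e-08, edgeR) and 1.40 ± 0.25 for basal minus proximal (adjusted p = 6.12e-06, edgeR). Uqcr10, a small complex III subunit, differed by 1.04 ± 0.20 and 0.83 ± 0.24, and Uqcrb by 0.90 ± 0.20 and 1.17 ± 0.26. Cox6c (0.99 ± 0.20) and Ndufa5 (0.97 ± 0.21) passed for luminal minus proximal. Ndufa4 (1.40 ± 0.28) and Atp5j (1.27 ± 0.27), a peripheral stalk subunit, led basal minus proximal beside Ndufa11. In proximal sham cells the CPM of Uqcrb (698 and 762) was already above that of te2 luminal cells (446 and 493). Cox7c was the single member with a smaller luminal than basal response (-0.82 ± 0.24, adjusted p = 0.0493, edgeR), which did not pass under 9 alternatives, among them library totals alone (-0.56, adjusted p = 0.137).

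**Figure D4:**
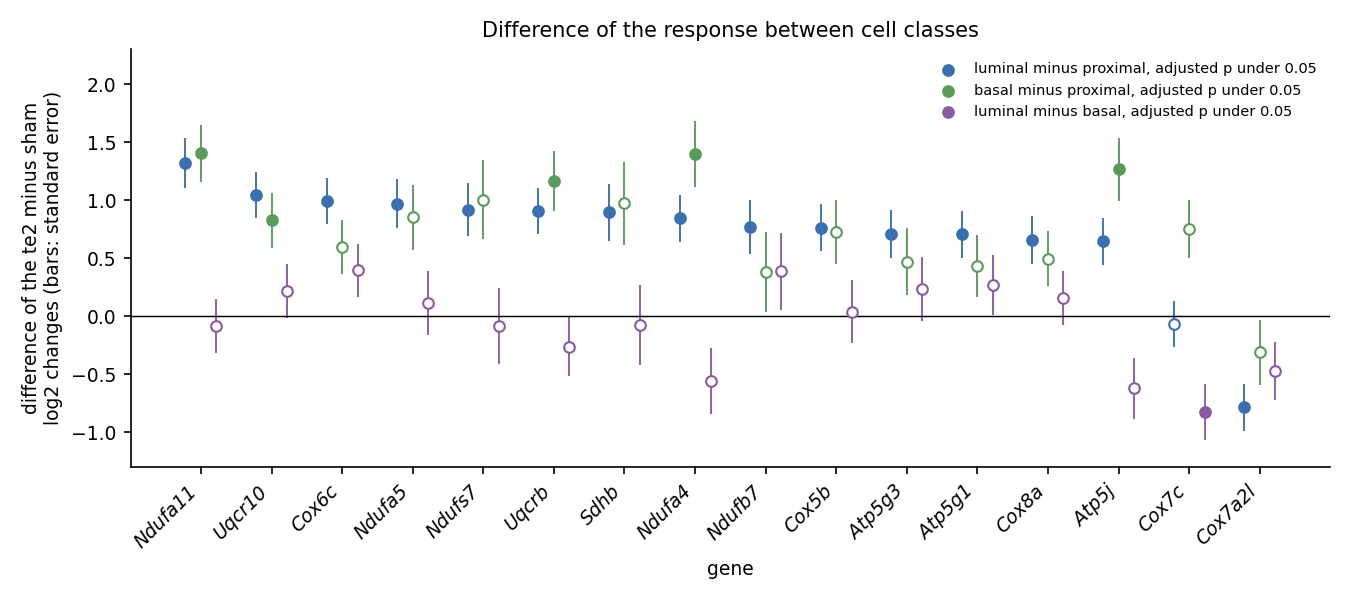
Difference between classes in the te2 minus sham log2 change (y axis) for members called in at least 1 contrast (x axis), except Cox7a1 at 3.32, which lies beyond the axis. Bars are standard errors and filled points passed at an adjusted p under 0.05; Ndufa11 is highest for luminal minus proximal (1.32), and Cox7c (-0.82) and Cox7a2l (-0.78) are the filled points below 0.

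The subunits of the same complexes that mitochondrial DNA encodes did not rise with the nuclear ones. In luminal cells 1 of 13 was higher and 7 lower, with a median of -0.41, where 14.1% of all genes were lower. In basal cells it was 1 and 5 (median -0.46), against 3.38% of all genes lower, and in proximal cells 1 and 4 (median -0.40), against 4.19%. By DESeq2 it was 0 and 1 in basal and 1 and 2 in proximal cells, and with the replicate number as a block 1 and 3, and 1 and 1. The complex I gene mt-Nd3 was the higher one in each class, with 317 and 264.5 CPM in sham and 552 and 689 in te2 luminal cells (1.10 ± 0.15, adjusted p = 8.42e-05, edgeR). The largest fall was in mt-Nd6, the complex I gene on the opposite strand from the rest, with 1078 and 853 CPM in sham and 375 and 321 in te2 luminal cells (-1.47 ± 0.15, adjusted p = 8.18e-06, edgeR). It changed by -1.68 ± 0.22 in basal and -1.53 ± 0.22 in proximal cells and passed in every setting of all 3 classes. In luminal cells the complex IV gene mt-Co3 (-1.04 ± 0.16), mt-Co2 (-0.89 ± 0.17) and the complex V gene mt-Atp6 (-0.79 ± 0.17) were lower in all 17 settings. The complex III gene mt-Cytb had a luminal change of 0.04 and was not called. In basal and proximal cells the sign of the list median depended on sham replicate 2. Without it the median was 0.38 in basal (all genes 0.63) and 0.25 in proximal cells (all genes 0.44). The list thus stayed below all genes there. The share of UMIs from the mitochondrial genome was 4.29% and 5.14% in sham and 4.16% and 4.29% in te2 luminal cells, so the groups overlapped. The gene mt-Nd6 lies opposite the end of mt-Nd5, and whether the counting used strand is not given in the sources used here.

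**Figure D5:**
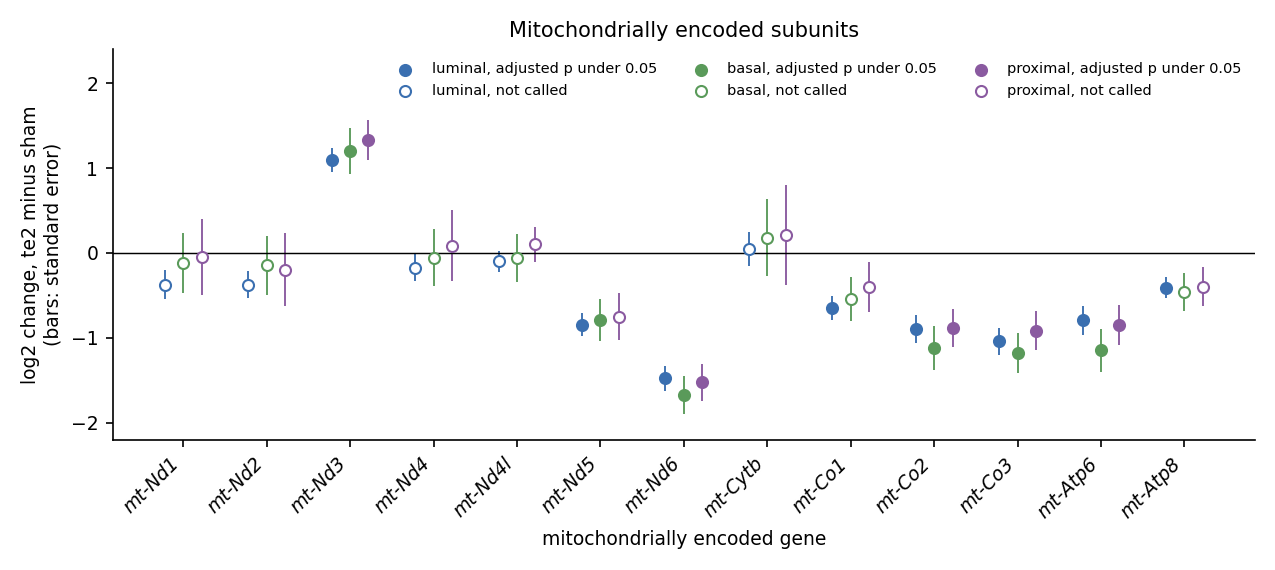
Log2 change (te2 minus sham, y axis) of the 13 mitochondrially encoded subunits (x axis) in luminal, basal and proximal cells, with standard errors; filled points passed at an adjusted p under 0.05. mt-Nd3 lies above 0 in each class (1.10 to 1.33) and mt-Nd6 below it (-1.68 to -1.47).

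Genes that serve the chain were counted from lists, beside 18.0% of all genes higher and 14.1% lower in luminal cells. In luminal cells 15 of 19 genes of exchange and import were higher and 0 lower, led by Chchd10 (1.35 ± 0.13), of the inner membrane cristae, and Vdac2 (1.35 ± 0.13), an outer membrane channel. Mitochondrial ribosomal proteins were higher for 45 of 77 and lower for 2 (Mrps6 and Mrpl9). Of 9 electron carriers tested 5 were higher, among them Etfb (1.59 ± 0.14), which carries electrons from fatty acid oxidation, and cytochrome c, Cycs (1.09 ± 0.13). Of 17 genes of the tricarboxylic acid cycle 6 were higher, with Sucla2 (1.15 ± 0.14) and Fh1 (1.25 ± 0.21) first. Assembly factors were higher for 10 of 38, among them Uqcc2 (0.85 ± 0.12) and Sdhaf4 (1.06 ± 0.17), and lower for 1, the copper chaperone gene Cox17 (-0.57 ± 0.13). The median of that list was 0.06, and DESeq2 called 5 of it higher. Of 13 transcriptional regulators tested, 0 passed by edgeR or by DESeq2. At an unadjusted p under 0.05, 3 were higher and 1 lower by edgeR. Of 82 cytosolic ribosomal protein genes 45 were lower and 3 higher, led by Rpl23a (-1.46 ± 0.14) and Rpl17 (-1.36 ± 0.14).

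In basal cells the counts were 4 of 19 higher for exchange and import, 11 of 76 for the mitochondrial ribosome, 1 of 9 for electron carriers (Coq7, of ubiquinone synthesis), 2 of 17 for the tricarboxylic acid cycle (Sucla2 and Mdh2), 1 of 33 for assembly factors (Cox19) and 0 of 10 for regulators, with 0 lower in each list, beside 5.45% of all genes higher. DESeq2 called 0 higher and 0 lower in each of these 6 lists. Cytosolic ribosomal proteins were higher for 2 and lower for 9 of 81. In proximal cells the counts were 3 of 19 (Phb2 and Vdac3 first), 2 of 77 (Mrpl17 and Mrps24), 1 of 10 (Cycs), 0 of 17 with Idh2 lower, 0 of 38 and 0 of 13. Of all genes 5.18% were higher there. DESeq2 called 0 in each of these 6 lists. In proximal cells 2 of 81 cytosolic ribosomal proteins were higher and 7 lower, and by DESeq2 1 and 2, as against 1 and 1 in basal cells. Leaving out 1 library moved the mitochondrial ribosome count between 34 and 43 in luminal, 2 and 9 in basal, and 0 and 1 in proximal cells. The basal count was 6 with sham replicate 2 left out, and 3 or 2 with the first or the second te2 library left out. Without sham replicate 2 the median of the basal cytosolic ribosomal proteins was 0.22, below that of all genes (0.63). Without sham replicate 2 proximal calls were few over all genes too, and no list other than the mitochondrially encoded genes kept one.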

How the data were processed

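Libraries were made with a 10x 3' kit from 1 mouse each. The deposited tables hold counts (UMIs) per gene and cell, and list genes seen in at least 3 cells of a library. The submitters' processing notes name kallisto 0.46.1, bustools 0.39.4, R 4.3.2, Seurat 5.0.1 and the build GRCm39 without giving their roles. Groups came from the labels.

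Cells with at least 500 UMIs and at most 20% mitochondrial UMIs were kept (8091 of 11245), assigned by the gates given above, and their deposited counts summed per library and class. Sums were tested two-sided with edgeR 4.0.16 (R 4.3.3, quasi-likelihood, TMM, filterByExpr), with Benjamini-Hochberg adjustment over all genes tested and a threshold of 0.05. The test was run on simulated counts with the same spread for every gene, which cannot show how it fares with the spread between these animals. An exact permutation test of 2 against 2 cannot go below p = 0.333, so the p-values rest on a spread pooled over genes. Scrublet (scanpy 1.11.5) called 97 doublets (1.2% of kept cells), which were kept and left out as an alternative.

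The members, gates and lists were chosen with earlier results of these data known. Named members are, for each complex and class, up to 3 rising and 3 falling members of smallest p, the least changed member, all Sdh genes, the isoform pairs and Atpif1, and, for class differences, up to 5 per contrast. From each related list, up to 2 rising and 2 falling genes were named per class. Others are said to be chosen after their values were seen. The subgroups of complexes I and V and the members drawn in the plot of levels were also chosen then. Alternatives were other scalings (library totals, RLE), DESeq2 1.42.0, other filters and gates, thinning, the replicate block and leaving out each library. RefSeq promoters on GRCm38.p6 were matched by symbol only, since the tables use another build.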

Additional observations from a re-analysis of the deposited data

Results flagged for a closer look

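The response to te2 differed between classes for members listed here, by an interaction term in edgeR's quasi-likelihood fit. For luminal minus proximal the differences in log2 change were 1.32 for Ndufa11, 1.04 for Uqcr10, 0.99 for Cox6c, 0.97 for Ndufa5 and 0.90 for Uqcrb. For basal minus proximal they were 1.40 for Ndufa11, 1.40 for Ndufa4, 1.27 for Atp5j, 1.17 for Uqcrb and 0.83 for Uqcr10. For luminal minus basal it was -0.82 for Cox7c. These 11 differences lost their call without te2 replicate 1 or without te2 replicate 2, where calls over all genes fell too.

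Cells that passed no gate entered no comparison. Members took 3.40% of their UMIs in te2 replicate 1 and 3.49% in te2 replicate 2, above the 2.53% and 2.95% of the sham libraries.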

How the results depend on the processing

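In luminal cells the counts of higher and lower members stayed within 1.5 times under every alternative run, and the member median lay between 0.50 and 0.62. The median ranged from 0.43 to 1.22 in basal and from -0.04 to 0.42 in proximal cells. Among the named members, none that was called changed direction, and the other called members were not examined for this. Of the named mitochondrially encoded genes called lower, some were above 0 without sham replicate 2. In basal cells these were mt-Co2 (0.54), mt-Co3 (0.09) and mt-Atp6 (0.06), where the median of all genes was 0.63. In proximal cells they were mt-Co2 (0.21) and mt-Atp6 (0.30), with all genes at 0.44. Higher members in basal cells numbered 5 by DESeq2 and 3 when thinned to equal totals, and 7 to 24 with 1 library left out. Higher members in proximal cells numbered 1 by DESeq2 (147 of 10434 genes) and 3 with at most 10% mitochondrial UMIs (369 of 10215). They numbered 2 when thinned (123 of 1579 genes) and 3 with the replicate block (347 of 10434). With any 1 library left out their count fell, and so did that over all genes. Lower members there numbered 3 with library totals alone, 1 with exactly 1 gate, 1 with at least 3 gate UMIs and 3 when thinned. For luminal minus basal, 1 member was higher and 0 lower with library totals alone, and 0 were lower with RLE size factors, DESeq2, no filter, doublets left out or thinning, and 0 to 1 with 1 library left out. For luminal minus proximal, 34 were higher with library totals alone, 8 when thinned and 0 to 23 with 1 library left out, and 0 to 1 lower. For basal minus proximal these were 11, 2 and 0 to 7. The cause was not tested, except that thinning left fewer genes to test (919 of 9196 in basal cells). Over all genes, DESeq2 called 1145 higher and 708 lower in luminal (edgeR 1977 and 1543), 90 and 74 in basal (501 and 311) and 147 and 133 in proximal cells (540 and 437). Same-numbered libraries did not deviate together (r = 0.017, -0.032 and -0.011), and the replicate block gave 51, 20 and 3 higher members in luminal, basal and proximal cells. Gates at double the share were added after seeing the data. At least 2000 UMIs in basal, proximal and class difference fits, and doubled gates in proximal cells, were not run, since a library held fewer than 20 cells. Depth limits basal and proximal sham values most.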
